A study of Mus musculus with 20 samples.

Results

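The 10 genes described here are expressed by the resident macrophages of the liver, the Kupffer cells, and were followed across all 3 groups of the study. They are the surface and secreted markers Clec4f, Timd4, Vsig4, Cd5l, Marco, Adgre1 and Cd163, and the complement genes C1qa, C1qb and C1qc. Not all are confined to Kupffer cells: Adgre1 and the C1q genes are expressed by other macrophages too. The 10 genes were chosen by symbol, and all 10 were found among the 32400 Ensembl genes of the deposited table. Each was present once, and all 10 passed the filter on low counts that left 13667 genes for testing. Kupffer cells line the hepatic sinusoids, take up particles and cell debris from portal blood, and are seeded before birth and largely maintained by self-renewal. When they are lost, recruited monocytes can fill the niche and take on Kupffer cell genes, with Clec4f gained early and Timd4 late. C1q, made of chains encoded by C1qa, C1qb and C1qc, is the recognition part of the C1 complex that opens the classical complement pathway, and macrophages are its main source.

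Messenger RNA of whole liver was sequenced from C57BL/6NTac mice. Mice of the chow control group (n = 5) ate standard chow and had no treatment. The HFHF control group (n = 7) received vehicle, which was PBS, and ate a high-fat, high-fructose (HFHF) diet. The HFHF Flcn gRNA group (n = 8), called the gRNA group here, received an AAV8 vector carrying a guide RNA against Flcn, the folliculin gene, and ate the same diet. The HFHF controls received no vector, so an effect of the guide and an effect of AAV8 itself cannot be told apart, and the chow animals received no injection, so diet and vehicle cannot be told apart either. The labels name no nuclease, age or sex, and do not say that each library is a separate animal, so p-values measure the spread between these libraries. Total expected counts per library ran from 14131976 to 16285324 in chow control, 15244760 to 18194089 in HFHF control and 13974379 to 19586576 in the gRNA group. Replicate 8 of the gRNA group differs from all other libraries in a field of its title, which the labels do not explain, and had the largest share of counts in its 10 most abundant genes (28%). Flcn itself was at 22.2 ± 6.03 CPM in chow control, 20.7 ± 2.98 CPM in HFHF control and 17.8 ± 2.40 CPM in the gRNA group (mean ± SD), where CPM is the count relative to the TMM-scaled library size. The gRNA and HFHF control ranges of Flcn, 14.1 to 22.0 and 17.8 to 26.4 CPM, overlapped (log2 fold change -0.22, SE 0.12, edgeR adjusted p = 0.140). Against chow control Flcn was lower in the gRNA group (-0.32, SE 0.13, edgeR adjusted p = 0.04995), a call at the edge of the threshold. It was lost with each of the 7 other tools, scalings, filters and sample choices tried. It was also lost in 17 of 20 fits without 1 library, whose adjusted p lay between 0.0314 and 0.420, the last without chow replicate 1 (log2 fold change -0.12).

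Promoters are shown for a pair of genes that moved together upward on the diet, C1qb and C1qc, and for 3 that moved together downward, Timd4, Marco and Cd163. The sequences are RefSeq windows of build GRCm38.p6 upstream of the annotated start, trimmed where an annotated exon lay inside the window, and 8 of the 10 genes, all but C1qa and Adgre1, were matched to one. Capitals mark matches, on either strand, to GAGGAA, to GAGGAAGT (sites of PU.1, the lineage factor of macrophages, with the shorter word contained in the longer) or to TGCTGAC. C1qb is shown from chr4:136886201-136886450 (minus strand), C1qc from chr4:136893066-136893164 (minus strand), Timd4 from chr11:46810549-46810798 (plus strand), Marco from chr1:120505025-120505274 (minus strand) and Cd163 from chr6:124304401-124304650 (plus strand). For C1qb, Timd4 and Cd163 the bases just after the RefSeq start were found in no GENCODE transcript of the gene, while for C1qc and Marco they were.
C1qb: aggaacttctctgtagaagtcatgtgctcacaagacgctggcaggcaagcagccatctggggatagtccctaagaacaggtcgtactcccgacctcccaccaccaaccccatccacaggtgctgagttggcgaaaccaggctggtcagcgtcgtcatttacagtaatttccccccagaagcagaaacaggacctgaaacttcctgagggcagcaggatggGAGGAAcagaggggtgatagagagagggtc
C1qc: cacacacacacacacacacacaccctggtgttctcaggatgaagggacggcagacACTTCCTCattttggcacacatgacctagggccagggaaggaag
Timd4: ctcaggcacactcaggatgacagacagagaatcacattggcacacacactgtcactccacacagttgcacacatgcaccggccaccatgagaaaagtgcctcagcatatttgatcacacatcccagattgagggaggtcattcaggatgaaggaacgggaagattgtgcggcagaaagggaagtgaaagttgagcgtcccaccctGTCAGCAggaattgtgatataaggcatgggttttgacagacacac
Marco: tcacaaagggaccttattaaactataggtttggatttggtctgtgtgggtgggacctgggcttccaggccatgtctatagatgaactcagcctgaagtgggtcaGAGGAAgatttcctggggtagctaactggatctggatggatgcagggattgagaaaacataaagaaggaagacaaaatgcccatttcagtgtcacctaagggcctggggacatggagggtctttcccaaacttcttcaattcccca
Cd163: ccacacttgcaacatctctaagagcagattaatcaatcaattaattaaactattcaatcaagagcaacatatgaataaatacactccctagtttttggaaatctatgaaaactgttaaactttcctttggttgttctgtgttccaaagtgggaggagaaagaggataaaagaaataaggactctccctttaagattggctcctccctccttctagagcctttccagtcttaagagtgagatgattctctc
The longer PU.1 word was found in 1 of the 8 windows, that of C1qc, where it stands as ACTTCCTC on the printed strand, and in 2.44% of 27025 RefSeq promoters. GAGGAA was in 5 of the 8 (Vsig4, Cd5l, Marco, C1qb and C1qc) and in 23.13% of all promoters. TGCTGAC was in the window of Timd4 alone, as GTCAGCA on the printed strand, and in 3.72% of all promoters, while the E-box CACGTG was in none of the 8 and in 6.05% of all. The shares are for windows of 250 bases. GAGGAA was in the windows of Cd5l, C1qb and C1qc, which rose on the diet, and of Marco, which fell. It was absent from those of Timd4 and Cd163, which also fell, and the window of Cd163 held no match. A link between the words and the direction of change was not tested, and 8 windows are too few to show one.

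On the HFHF diet the 10 genes split into 3 sets. Cd163, Timd4 and Marco fell, the C1q genes, Cd5l and Adgre1 rose, and Clec4f and Vsig4 did not pass the test. In numbers, 5 of 10 were higher against 28.1% of all tested genes, 3 were lower against 28.9%, and 2 did not pass. The groups did not overlap for those 5 higher genes (18.8% of all genes) or those 3 lower genes (18.1%). With the gRNA, compared with HFHF control, 4 of 10 were higher (19.6% of all genes) and 4 lower (19.0%). Cd163, Timd4, Marco and Clec4f rose, and C1qa, C1qb, C1qc and Adgre1 fell. The groups did not overlap for 2 of the higher genes, Cd163 and Timd4 (5.04% of all genes), and for 0 of the lower (6.01%). The median log2 fold change of the 10 was 0.64 on the diet and -0.10 with the gRNA, beside -0.01 and 0.01 over all genes. Both comparisons use the same HFHF control libraries, so their values are not independent of each other. In bulk liver RNA, fewer cells of a type and less RNA per cell cannot be told apart.

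**Figure D1:**
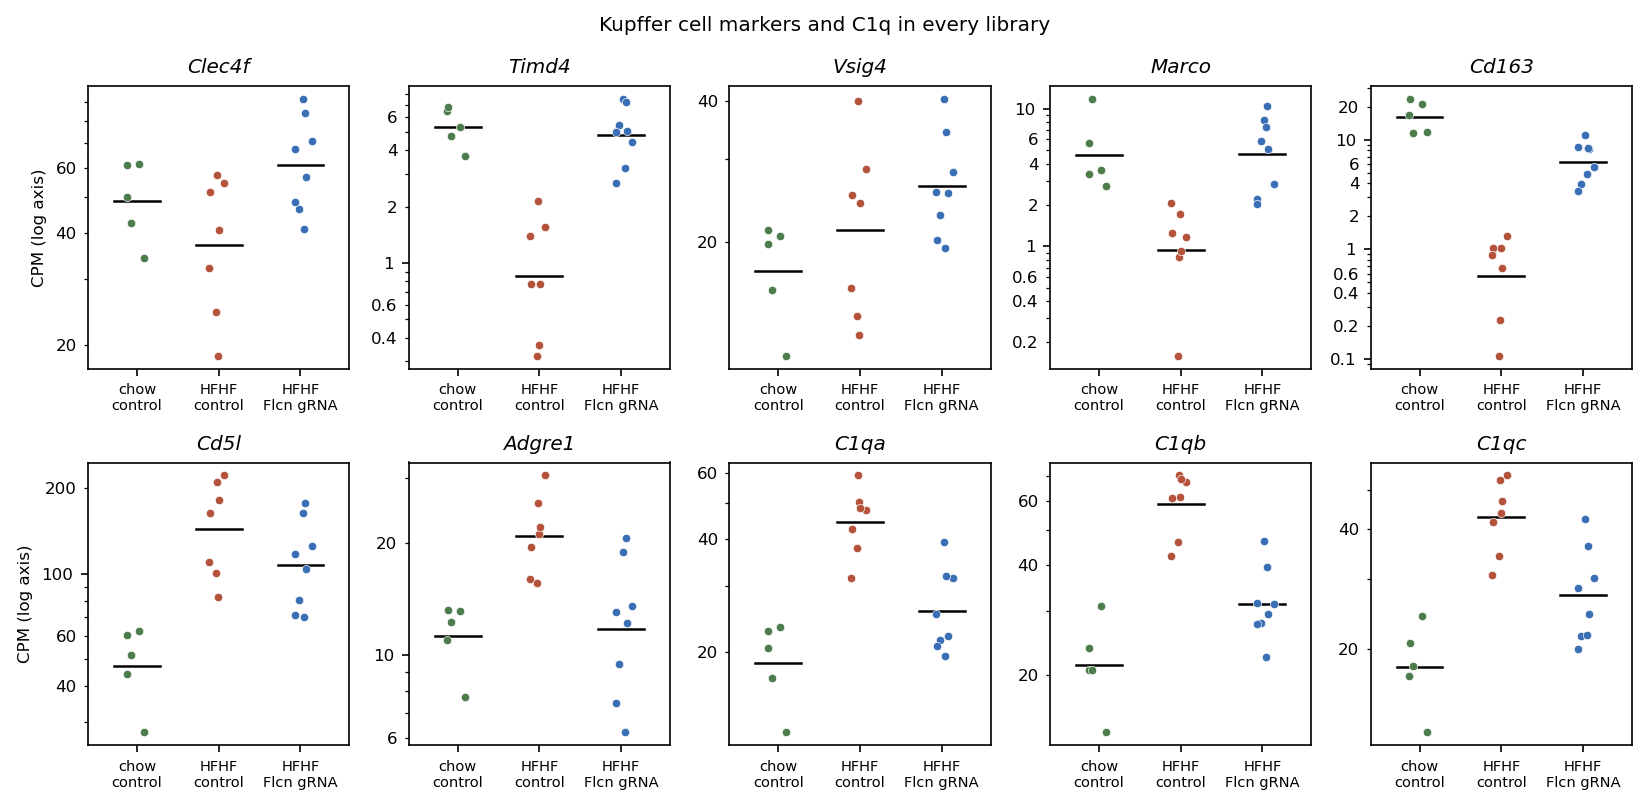
Level of each of the 10 genes in every library, as CPM on a log axis with its own range in each panel. Points are libraries of chow control (n = 5), HFHF control (n = 7) and HFHF Flcn gRNA (n = 8), and black lines are geometric means. Cd163, Timd4 and Marco are low in HFHF control, and the C1q genes, Cd5l and Adgre1 are high there.

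Cd163, the scavenger receptor for haptoglobin-bound haemoglobin, changed most. In chow control the 5 libraries were at 16.8, 11.4, 11.9, 21.1 and 23.7 CPM. HFHF control ran from 0.107 to 1.31 CPM with a median of 0.894, which is 2 to 26 counts per library, and the gRNA group ran from 3.44 to 11 CPM with a median of 6.93. The 3 groups did not overlap one another: the libraries of the gRNA group lay between those of the others. The group means were 17.0 ± 5.44, 0.754 ± 0.446 and 6.79 ± 2.68 CPM. On the diet Cd163 fell by 4.47 on the log2 scale (SE 0.37, edgeR adjusted p = 1.16e-08), a 22.2-fold difference. With the gRNA it was 3.16 higher than in HFHF control (SE 0.36, edgeR adjusted p = 1.76e-06), an 8.95-fold difference. Against chow control its log2 fold change in the gRNA group was -1.31 (SE 0.29, edgeR adjusted p = 0.00141). Of the 10 genes it was the single one that passed the test below chow control in the gRNA group.

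Timd4 encodes a phosphatidylserine receptor for apoptotic cells and marks Kupffer cells of embryonic origin. Its chow libraries were at 6.47, 4.78, 3.71, 5.35 and 6.85 CPM. HFHF control ran from 0.320 to 2.13 CPM with a median of 0.776, which is 6 to 38 counts, and the gRNA group from 2.67 to 7.53 CPM with a median of 5.02. No HFHF control library reached any library of the other groups, while the gRNA and chow ranges overlapped. Timd4 fell by 2.36 on the diet (SE 0.34, edgeR adjusted p = 6.04e-06) and was 2.27 higher with the gRNA (SE 0.31, edgeR adjusted p = 9.97e-06). Between gRNA and chow the log2 fold change was -0.09 (SE 0.30, edgeR adjusted p = 0.823), a test that does not show equality. The group means there were 5.08 ± 1.72 and 5.43 ± 1.27 CPM.

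Marco, a class A scavenger receptor for bacteria and particles, had chow libraries at 3.38, 11.8, 2.72, 3.57 and 5.6 CPM. HFHF control ran from 0.160 to 2.07 CPM with a median of 1.16, which is 3 to 37 counts, and the gRNA group from 2.04 to 10.5 CPM with a median of 5.48. On the diet the groups did not overlap, and 7 of the 8 gRNA libraries lay above every HFHF control library. Marco fell by 2.24 on the diet (SE 0.50, edgeR adjusted p = 8.46e-04) and was 2.27 higher with the gRNA (SE 0.46, edgeR adjusted p = 6.69e-04). Its SE was the largest of the 10 genes in each comparison. Between gRNA and chow its log2 fold change was 0.03 (SE 0.44, edgeR adjusted p = 0.967), and this value ranged from -0.17 to 0.57 when single libraries were left out.

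Clec4f, a C-type lectin confined to Kupffer cells in mouse liver, was higher with the gRNA but did not pass on the diet. Chow libraries were at 49.9, 42.6, 34.3, 61.2 and 61.0 CPM, HFHF control ran from 18.7 to 57.4 with a median of 40.7, and the gRNA group from 41.1 to 91.9 with a median of 62.0. All 3 ranges overlapped, and 4 of the 8 gRNA libraries lay above every HFHF control library. The diet difference was -0.32 (SE 0.27, edgeR adjusted p = 0.330) and did not pass. With the gRNA Clec4f was 0.66 higher than in HFHF control (SE 0.24, edgeR adjusted p = 0.0353; exact permutation p = 0.0197 over 6435 regroupings, two-sided). This call depended on the setting. It was lost with upper-quartile scaling (0.61, adjusted p = 0.0552), without the filter on low counts (0.66, adjusted p = 0.0660) and with the 2 groups fitted alone (0.66, adjusted p = 0.0552). It was also lost in 8 of 20 fits that left out 1 library, those of gRNA replicates 2, 4, 5 and 7 and HFHF control replicates 2, 5, 6 and 7. Over all 20 such fits the log2 fold change lay between 0.54 and 0.77 and the adjusted p between 0.0207 and 0.0792.

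Vsig4, the complement receptor of Kupffer cells that binds C3 fragments, did not pass edgeR's test in any of the 3 comparisons. Chow libraries were at 19.8, 15.8, 11.4, 20.6 and 21.2 CPM, HFHF control ran from 12.6 to 39.9 with a median of 24.3, and the gRNA group from 19.4 to 40.4 with a median of 25.5. The log2 fold changes were 0.37 on the diet (SE 0.27, edgeR adjusted p = 0.252), 0.24 for gRNA against HFHF control (SE 0.23, edgeR adjusted p = 0.448) and 0.61 for gRNA against chow (SE 0.26, edgeR adjusted p = 0.0711). In the last comparison 6 of 8 gRNA libraries lay above every chow library, and a two-sided exact permutation test gave p = 0.0132 over 1287 regroupings. That comparison also passed with DESeq2 (adjusted p = 0.0340), in the fit of those 2 groups alone (adjusted p = 0.0187) and without HFHF control replicate 1 (adjusted p = 0.0398).

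Cd5l, a secreted scavenger protein of macrophages, rose on the diet. Chow libraries were at 44.1, 51.4, 27.5, 62.5 and 60.5 CPM, HFHF control ran from 83.0 to 222 with a median of 164, and the gRNA group from 70.1 to 177 with a median of 110. Every library on the HFHF diet, with or without the gRNA, lay above every chow library. The log2 fold change was 1.64 for HFHF control against chow (SE 0.31, edgeR adjusted p = 1.88e-04) and 1.21 for gRNA against chow (SE 0.30, edgeR adjusted p = 0.00333). Between gRNA and HFHF control it was -0.43 (SE 0.26, edgeR adjusted p = 0.199), and the ranges overlapped. Of the 3 genes higher in gRNA than in chow, Cd5l had the largest log2 fold change.

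Adgre1 encodes the surface antigen most often used to stain mouse macrophages of any origin. Chow libraries were at 11, 12.3, 7.72, 13.1 and 13.2 CPM, HFHF control ran from 15.6 to 30.5 with a median of 21.2, and the gRNA group from 6.20 to 20.7 with a median of 12.6. All HFHF control libraries were above all chow libraries, and 6 of 8 gRNA libraries were below every HFHF control library. Adgre1 rose by 0.91 on the diet (SE 0.26, edgeR adjusted p = 0.00612) and was lower by a log2 fold change of -0.76 with the gRNA (SE 0.22, edgeR adjusted p = 0.0110). The difference between gRNA and chow was 0.15 (SE 0.26, edgeR adjusted p = 0.667).

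The C1q genes lie side by side on chromosome 4 on the minus strand of GRCm38, in the order C1qb (136880129 to 136886187), C1qc (136889804 to 136893065) and C1qa (136895917 to 136898803). All 3 rose on the diet and fell with the gRNA. C1qb had chow libraries at 20.7, 20.7, 14, 30.9 and 23.7 CPM, ran from 42.4 to 70.4 CPM in HFHF control with a median of 61.3, and from 22.4 to 46.6 in the gRNA group with a median of 30.4. The HFHF control libraries were all above those of chow, and 7 of 8 gRNA libraries were below every HFHF control library. C1qb rose by 1.44 on the diet (SE 0.19, edgeR adjusted p = 3.31e-06) and was lower by a log2 fold change of -0.90 with the gRNA (SE 0.16, edgeR adjusted p = 1.99e-04). C1qa went from 19.2 ± 4.58 CPM in chow to 45.3 ± 8.98 in HFHF control and 26.5 ± 7 in the gRNA group, with log2 fold changes of 1.24 (SE 0.20, edgeR adjusted p = 2.45e-05) and -0.78 (SE 0.16, edgeR adjusted p = 9.86e-04). C1qc went from 18.5 ± 4.36 to 43.5 ± 8.86 and 28.1 ± 7.86 CPM, with log2 fold changes of 1.23 (SE 0.20, edgeR adjusted p = 3.91e-05) and -0.63 (SE 0.17, edgeR adjusted p = 0.00643). No HFHF control library overlapped chow for either gene, and 5 gRNA libraries for C1qa and 6 for C1qc lay below every HFHF control library.

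Against chow, 3 of the 10 genes were higher in the gRNA group (20.9% of all genes), namely Cd5l, C1qb and C1qc, and 1 was lower (21.7%), Cd163. C1qb was higher by 0.54 (SE 0.19, edgeR adjusted p = 0.0239) and C1qc by 0.60 (SE 0.20, edgeR adjusted p = 0.0186), while C1qa, at 0.47 (SE 0.19, edgeR adjusted p = 0.0554), did not pass. The C1qb call was lost without chow replicate 3 (0.44, adjusted p = 0.0606), and C1qa passed with DESeq2 (adjusted p = 0.0316), with upper-quartile scaling (adjusted p = 0.0429) and with a filter of 1 CPM (adjusted p = 0.0420). C1qa also passed without gRNA replicate 1, 3, 6 or 8, chow replicate 4 or 5, or HFHF control replicate 1 or 5 (adjusted p from 0.0343 to 0.0488). The groups did not overlap for Cd5l, 1 higher gene (9.01% of all genes), and for Cd163, 1 lower gene (8.98%). The medians were 0.41 for the 10 genes and 0.00 over all genes. Without gRNA replicate 8 the counts against HFHF control were again 4 higher and 4 lower, with log2 fold changes of 3.25 for Cd163, 2.35 for Timd4, 0.70 for Clec4f and -0.88 for C1qb.

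**Figure D2:**
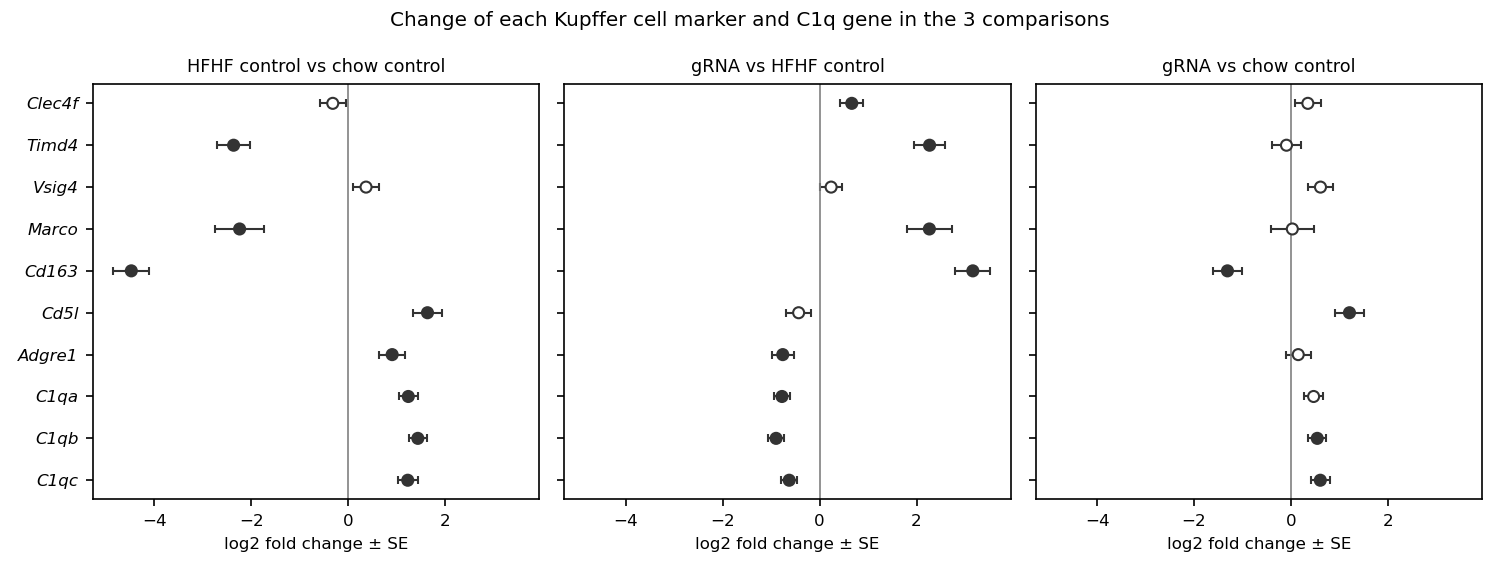
Log2 fold change of each gene in the 3 comparisons from the edgeR fit, with bars of 1 SE. Filled points passed an adjusted p of 0.05 over all genes and open points did not. Cd163, Timd4 and Marco lie to the left on the diet and to the right with the gRNA, the C1q genes and Adgre1 the other way, and the comparisons share libraries.

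Ratios between genes within a library depend little on how that library was scaled, except where a gene is near the added constant, as Cd163 and Timd4 were in some HFHF control libraries. In all, 7 ratios were compared in the 3 contrasts, 21 tests in all, by a two-sided exact permutation test of log2 (CPM + 0.1). Of these, 17 passed after Benjamini-Hochberg adjustment over the 21. The log2 ratio of Clec4f to C1qb was 1.19 ± 0.16 in chow, -0.66 ± 0.53 in HFHF control and 0.96 ± 0.15 in the gRNA group (SD). HFHF control libraries, from -1.71 to -0.24, overlapped neither the chow libraries, from 0.98 to 1.36, nor the gRNA libraries, from 0.73 to 1.17. So Clec4f, which did not pass on the diet by itself, was lower relative to C1qb in every HFHF control library. The difference was 1.62 for gRNA against HFHF control (exact permutation p = 1.554e-04, the smallest that 6435 regroupings can give) and -1.85 on the diet (exact permutation p = 0.00126, the smallest that 792 can give). Between gRNA and chow it was -0.22 (exact permutation p = 0.0319, adjusted p = 0.0394), and this no longer passed without some single libraries (adjusted p up to 0.0943).

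Timd4 changed more than Clec4f. The log2 ratio of Clec4f to Timd4 was 3.17 ± 0.20 in chow, 5.26 ± 0.56 in HFHF control and 3.64 ± 0.33 in the gRNA group. It differed by 2.08 on the diet (exact permutation p = 0.00126) and by -1.62 for gRNA against HFHF control (exact permutation p = 1.554e-04). The difference between gRNA and chow was 0.46 (exact permutation p = 0.0210, adjusted p = 0.0294), a value that no longer passed without chow replicate 1, 2, 3 or 5 (adjusted p up to 0.0764). Relative to Clec4f, Cd163 was at -1.58 ± 0.19 in chow, -5.71 ± 1.15 in HFHF control and -3.25 ± 0.36 in the gRNA group, with a difference between gRNA and chow of -1.68 (exact permutation p = 7.77e-04, the smallest that 1287 regroupings can give). Thus Cd163 was lower relative to Clec4f in every gRNA library than in every chow library.

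The log2 ratio of Timd4 to C1qb was -1.99 ± 0.33 in chow, -5.92 ± 0.87 in HFHF control and -2.67 ± 0.31 in the gRNA group. Its difference between gRNA and chow, -0.69, passed too (exact permutation p = 0.00233, adjusted p = 0.00408). Clec4f relative to Adgre1 was 2.10 ± 0.18, 0.82 ± 0.50 and 2.36 ± 0.23 in chow, HFHF control and gRNA. The gRNA and HFHF control libraries of this ratio did not overlap, and its difference between gRNA and chow was 0.26 (exact permutation p = 0.0653). The proportions among the C1q genes moved far less than these ratios. The log2 ratio of C1qc to C1qb was -0.24 ± 0.08, -0.46 ± 0.08 and -0.20 ± 0.15, a difference of -0.22 on the diet (exact permutation p = 0.00379) and 0.26 with the gRNA (exact permutation p = 0.00295). For C1qa to C1qb the differences were -0.21 on the diet (exact permutation p = 0.0278, adjusted p = 0.0365) and 0.11 with the gRNA (exact permutation p = 0.108). The diet value of C1qa to C1qb no longer passed without chow replicate 1, 3 or 5 or HFHF control replicate 3, 4, 5 or 7 (adjusted p up to 0.0875).

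**Figure D3:**
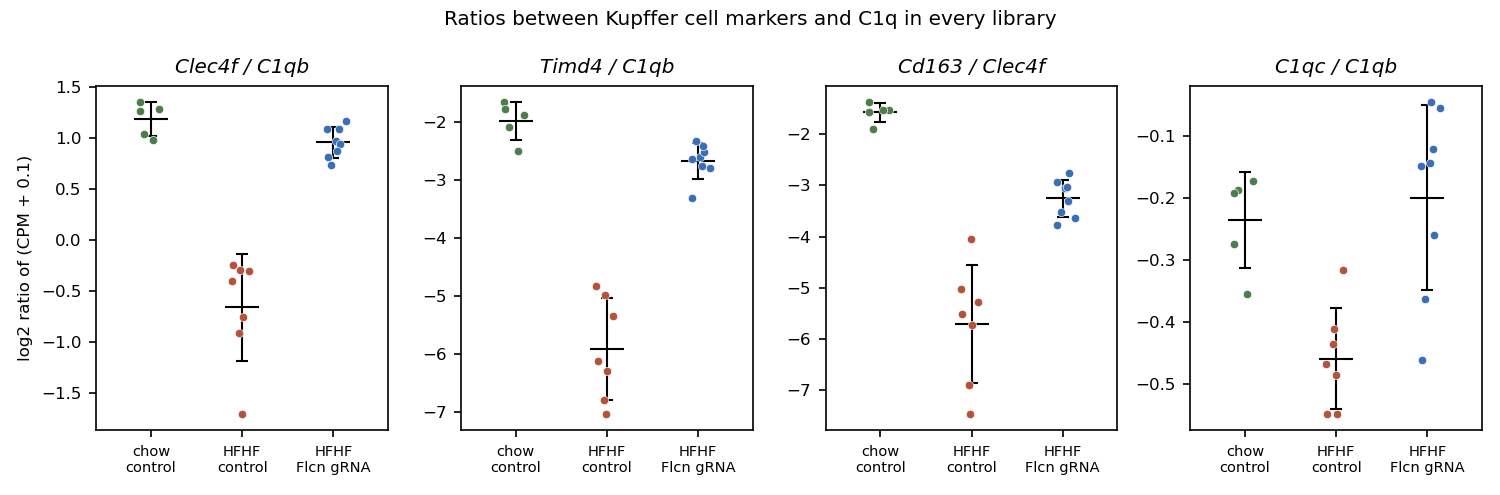
Log2 ratio of (CPM + 0.1) between pairs of genes in every library, with means and SD in black for chow control (n = 5), HFHF control (n = 7) and HFHF Flcn gRNA (n = 8), each panel with its own axis. For the first 3 ratios the HFHF control libraries lie apart from both other groups, while C1qc to C1qb differs by less than 1 log2 unit throughout.

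Per kilobase of the principal transcript the levels of different genes can be set side by side. In chow control Cd5l (24.2 CPM per kilobase), Clec4f (20.2), C1qb (20.2), C1qa (18.4), C1qc (15.4) and Vsig4 (12.4) formed an upper set, above Cd163 (3.85), Adgre1 (3.54), Marco (2.81) and Timd4 (2.50). In HFHF control the order was led by Cd5l (75.2), C1qb (54.8), C1qa (43.6) and C1qc (36.1), with Clec4f at 16.2, and it ended with Marco (0.602), Timd4 (0.482) and Cd163 (0.171). In the gRNA group Clec4f (25.6) stood near C1qb (29.4), C1qa (25.4) and C1qc (23.4). The order of chow did not return in full, since Cd5l (55.8) stood well above these genes and Cd163 was at 1.54. Neighbours within the upper set of chow, from Cd5l to C1qc, differed by less than 1 SD of either gene. The value of C1qc depends on the transcript used: over the union of its exons it was 22.5 CPM per kilobase in HFHF control and 14.6 in the gRNA group.

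Variation within the groups placed the 10 genes in a different order from the group differences. After each group's mean was removed, log2 levels over the 20 libraries correlated within C1q at r = 0.92 to 0.95 and among Clec4f, Vsig4 and Cd5l at r = 0.92 to 0.95. These points share library, depth and the tissue piece, and the values are a description. Timd4 stood at r = 0.46 to 0.81 with the other genes besides Marco and Cd163. Marco, at 0.14 to 0.53 with all others, and Cd163, at 0.29 to 0.52 with the genes besides Marco, were least like the rest. Clec4f and Cd5l, of which Cd5l alone passed the test on the diet, thus varied together from library to library within groups, while Timd4, Marco and Cd163, which fell together on the diet, did not vary closely together (r = 0.42 for Timd4 with Marco 0.37 for Timd4 with Cd163 and 0.53 for Marco with Cd163). The counts of these 3 in HFHF control were low, so counting error is part of their spread. Single libraries stood low or high for many genes together: chow replicate 3 was lowest in its group for 9 of the 10, and gRNA replicate 2 highest for 7.

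Among 12375 other genes, the patterns most like Clec4f within groups were those of Folr2 (r = 0.92), a folate receptor of resident macrophages, Il18bp (0.90), the decoy of interleukin 18, and Ccl6 (0.89), a macrophage chemokine. For C1qb they were Cybb (0.93), the phagocyte oxidase subunit, Cd53 (0.93), a leukocyte tetraspanin, and Tyrobp (0.92), a signalling adaptor of myeloid receptors. For Cd163 they included Fcna (0.81) and Ccrl2 (0.79). Fcna encodes ficolin A, a lectin of the complement system made by macrophages. For Timd4 they were Por (0.83), Cyld (0.82) and Nab1 (0.80), genes expressed well beyond macrophages.

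**Figure D4:**
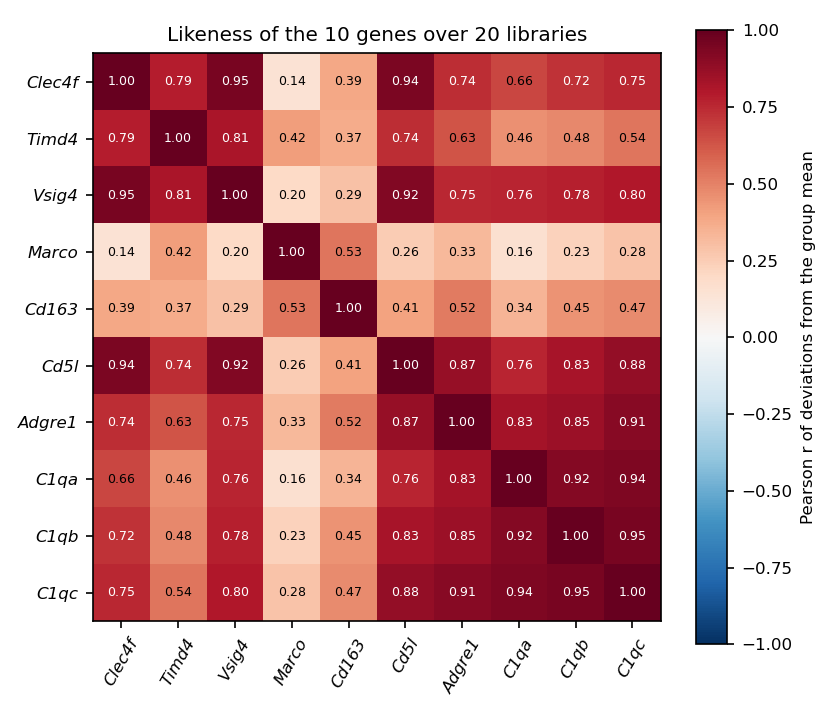
Pearson r between each pair of the 10 genes over 20 libraries, from log2 (CPM + 0.1) after removal of each group's mean. The C1q genes (0.92 to 0.95) and Clec4f, Vsig4 and Cd5l (0.92 to 0.95) form the reddest blocks, and Marco and Cd163 the palest rows.

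Other genes of Kupffer cells also went both ways. Of 18 measured, 8 were higher and 2 lower on the diet (median 0.50), and 3 were higher and 6 lower with the gRNA (median -0.29). For this list and those below, the shares of all tested genes were 28.1% higher and 28.9% lower on the diet. They were 19.6% and 19.0% with the gRNA against HFHF control, and 20.9% and 21.7% for the gRNA against chow. Calls in both directions were thus common among all genes. Fcna followed the direction of Cd163: it fell from 23.6 ± 3.51 to 8.54 ± 1.61 CPM on the diet and was at 26.5 ± 4.04 CPM with the gRNA, with no overlap between groups in either comparison (log2 fold changes -1.46 and 1.63, edgeR adjusted p = 6.82e-09 and 3.10e-09). The iron exporter gene Slc40a1 was at 99.2 ± 19.8 CPM in HFHF control and 153 ± 25.3 CPM with the gRNA (0.63, SE 0.12, edgeR adjusted p = 3.14e-04). Spic, a transcription factor of iron-recycling macrophages, was the last of the 3 that rose (0.59, SE 0.20, edgeR adjusted p = 0.0252). Fcgr1, a high-affinity Fc receptor, rose on the diet and fell with the gRNA (1.86 and -1.53), as did Zeb2, a transcription factor of Kupffer cell identity (0.95 and -0.67). Against chow, 6 of the 18 were higher and 0 lower in the gRNA group.

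Genes of a pan-macrophage and myeloid list, not all of them confined to macrophages, mostly rose and fell alongside the C1q genes. All 12 of the pan-macrophage and myeloid list were higher on the diet (median 1.78), and 10 of 12 were lower with the gRNA and 0 higher (median -0.94). Their summed level ran from 81.4 to 164.1 CPM in chow, 334.1 to 589.1 in HFHF control and 200.4 to 380.1 in the gRNA group. Fcer1g, an adaptor of Fc receptors, went from 4.32 ± 1.17 to 18.7 ± 2.44 and 8.76 ± 1.28 CPM. Cd68 (0.07, SE 0.18) and Lyz2 (-0.42, SE 0.18) did not pass for the gRNA against HFHF control. Against chow 11 of 12 were higher in the gRNA group (median 0.97).

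The list of monocyte-derived and lipid-associated macrophage markers had 13 of 14 higher on the diet (median 3.19), and 10 of 14 lower and 0 higher with the gRNA (median -1.37). Ccr2, the receptor of monocyte recruitment, went from 1.31 ± 0.640 to 12.0 ± 2.83 and 3.17 ± 1.31 CPM, and Trem2, a lipid receptor of macrophages, from 0.149 ± 0.0591 to 6.95 ± 2.42 and 3.86 ± 1.63 CPM. Gpnmb went from 0.102 ± 0.0652 to 46.1 ± 25.9 and 72.3 ± 34.9 CPM. Cd63 went from 2.14 ± 0.255 to 42.3 ± 14.1 and 61.5 ± 23.6 CPM. For the gRNA against HFHF control neither of these 2 passed (log2 fold changes 0.65 and 0.54, edgeR adjusted p = 0.172 and 0.0775). Fn1, which hepatocytes also express, was the 1 lower gene and made up most of the list's sum, which ran from 1399.5 to 1863.5 CPM in chow, 1213.7 to 1694.1 in HFHF control and 874.8 to 1868.6 in the gRNA group. Without Fn1, a choice made after its values were seen, the sums were 34.5 to 54.4, 210.8 to 529.8 and 164.8 to 320.7 CPM. None of the 14 was at 0 throughout a group. Against chow, 11 of 14 were higher and 1 lower in the gRNA group (median 1.29). The part of these cells in the C1q, Adgre1 and Cd5l values was not tested.

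**Figure D5:**
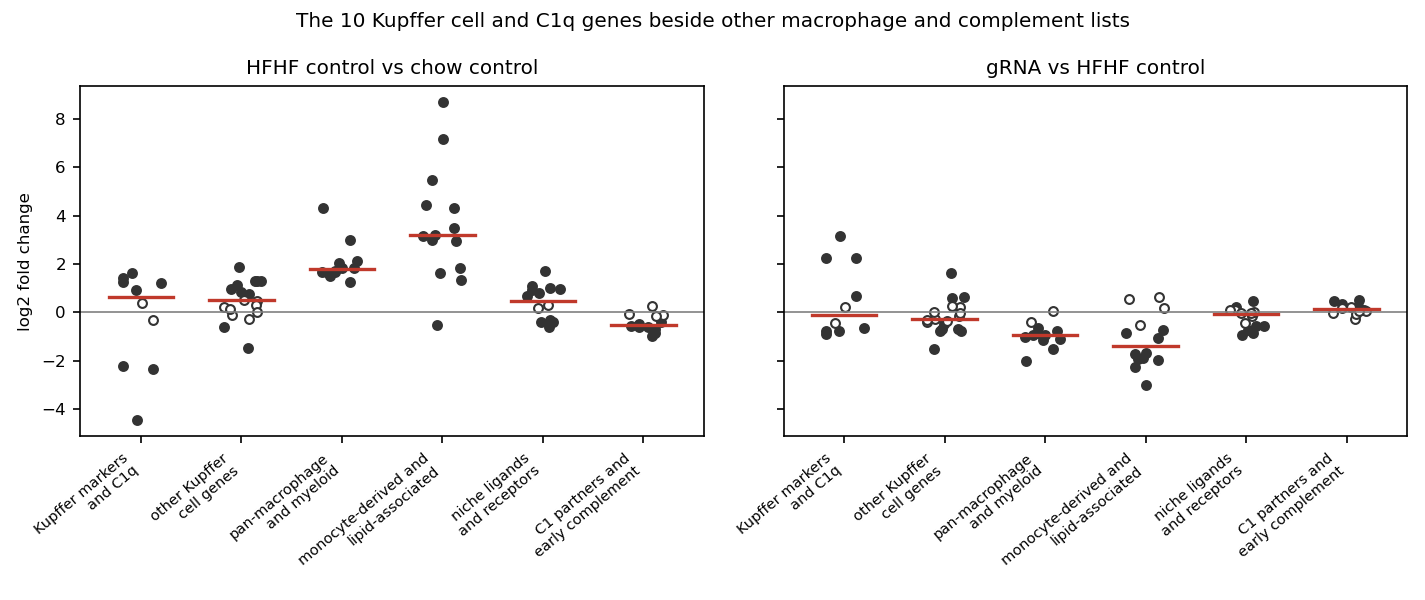
Log2 fold changes of the 10 genes and of 5 lists, for HFHF control against chow on the left and the gRNA against HFHF control on the right. Filled points passed an adjusted p of 0.05, open points did not, and red lines are medians. The 10 genes spread to both sides of 0 in each panel, while the myeloid and monocyte-derived lists lie mostly above 0 on the diet and below it with the gRNA.

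Signals that maintain Kupffer cells were measured through 14 niche ligands and receptors. On the diet 7 were higher and 5 lower (28.1% and 28.9% of all genes). With the gRNA 2 were higher and 5 lower (19.6% and 19.0% of all genes). Csf1, the growth factor of macrophages, went from 6.31 ± 0.870 to 12.4 ± 0.832 and 6.44 ± 1.28 CPM, and its HFHF control libraries overlapped neither other group. Il34, which binds the same receptor, went from 0.754 ± 0.239 to 2.47 ± 0.439 and 1.47 ± 0.405 CPM. Gdf2, the bone morphogenetic protein made by stellate cells, had log2 fold changes of 0.80 on the diet and -0.55 with the gRNA (edgeR adjusted p = 5.71e-07 and 2.31e-05). Bmp10 went the other way, at -0.61 on the diet and 0.48 with the gRNA (edgeR adjusted p = 0.00655 and 0.0217), as did the receptor gene Bmpr2 (-0.30 and 0.21). The Notch ligand Jag1 rose on the diet (0.92, SE 0.16, edgeR adjusted p = 3.97e-05) and had -0.04 (SE 0.13) with the gRNA. Csf1r, the receptor of Csf1, is not among these 14 and was counted with the other Kupffer cell genes above. It was at 0.51 on the diet (SE 0.24, edgeR adjusted p = 0.0835) and fell by 0.76 with the gRNA (SE 0.21, edgeR adjusted p = 0.00860).

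The partners of C1q in complement, most of them made by hepatocytes, did not follow C1q. Of 12 genes, 0 were higher and 8 lower on the diet (median -0.51), and 4 were higher and 0 lower with the gRNA (median 0.13). C1ra, a protease of the C1 complex, fell on the diet from 299 ± 14.9 to 185 ± 9.32 CPM and was at 190 ± 39.3 CPM with the gRNA. C1s1, the other protease, did not pass in either (-0.11, SE 0.06, and 0.09, SE 0.05). C2, which C1s cleaves, went from 87.7 ± 6.05 to 48.1 ± 4.89 and 68.6 ± 5.88 CPM, with no overlap between HFHF control and either other group. The other 3 that rose with the gRNA belong to the lectin pathway: Masp1 (0.25), Masp2 (0.46) and Mbl1 (0.33). Against chow, 1 was higher and 7 lower in the gRNA group.

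Markers of other liver cells moved as well, and their part in the values above was not tested. Stellate cell markers had 8 of 8 higher on the diet and 6 of 8 lower with the gRNA, with sums of 191.7 to 243.1, 434.4 to 548.8 and 244.5 to 341.6 CPM in chow, HFHF control and gRNA. Sinusoidal endothelial markers had 1 higher and 3 lower of 8 on the diet, and 3 higher with the gRNA, among them Stab2, a scavenger receptor, which went from 40.1 ± 7.34 to 70.0 ± 9.40 CPM. B cell markers had 0 of 5 past the test on the diet and 5 of 5 higher with the gRNA, with sums of 10.4 to 21.9, 9.4 to 25.7 and 25.9 to 96.0 CPM. Of 5 tested T and NK cell markers, 4 rose and Cd4 fell on the diet (-0.81), and 4 fell and Cd4 rose with the gRNA (1.27). Neutrophil markers had 3 of 3 tested higher on the diet and 3 of 3 lower with the gRNA. Ly6g was at 0 in all chow libraries, but it had only 5 counts over all 20 libraries and was not tested. Dendritic cell markers had 3 of 4 higher on the diet and 2 of 4 lower with the gRNA. The list of peritoneal macrophage markers (Gata6, Icam2, Selp and Prg4) had 3 of 4 higher on the diet and 3 of 4 lower with the gRNA. Whether such macrophages were the source of these values in whole liver was not tested. The diet call of Gata6 was lost in some fits without 1 library (edgeR adjusted p up to 0.0854). Cholangiocyte markers had 3 of 4 tested higher on the diet and 4 of 4 lower with the gRNA. The gRNA call of Sox9 was lost in some fits without 1 library (edgeR adjusted p up to 0.126). Spp1, called in both comparisons, is also on the list of monocyte-derived and lipid-associated macrophage markers. Hepatocyte markers had 4 of 5 lower on the diet and 2 of 5 higher with the gRNA. The diet call of Apoa1 and the gRNA call of Ttr were lost in some such fits (edgeR adjusted p up to 0.0868 and 0.0659).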

How the data were processed

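The deposited table holds expected counts per gene, estimated by the authors, which need not be whole (77.8% of values of at least 1 were). The build was GRCm38, per the submitters' processing notes. Not given in the sources used here: the aligner, the counter, its annotation, and whether strand and molecular identifiers were used. If identifiers went unused, amplified copies count as separate reads. A single column matched no label and was not used, and 22 construct features (7.0 counts in all) were left out.

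Symbols came from GENCODE M21, and no exon of the 10 genes overlapped another gene. Counts were rounded, filtered with filterByExpr on the 3 groups (13667 genes kept), scaled with TMM and fitted in 1 robust quasi-likelihood model in edgeR 4.0.16 (R 4.3.3), with 17 residual degrees of freedom (common biological coefficient of variation 0.164). Calls use a Benjamini-Hochberg adjusted p of 0.05 over all genes. SE is the absolute log2 fold change divided by the square root of the quasi-likelihood F statistic. CPM are TMM-scaled, and ratios and likeness use log2 (CPM + 0.1). Scripts were tested on simulated data. The 59 pairs of libraries within groups all differed beyond counting noise, so none was treated as a library deposited again; this does not show that they come from separate animals. Replicate numbers follow accession order and pair nothing.

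The 10 genes and the other 14 lists were chosen with earlier results of these data known. Genes named are the 10, Flcn, up to 4 of smallest p per list and comparison, genes that a count of 5 or fewer refers to, and the 3 of highest r for Clec4f, Timd4, Cd163 and C1qb (some of these are not reported here); Csf1r and C1s1 were named after their values were seen. Alternatives were DESeq2 1.42.0, limma-voom 3.58.1, RLE and upper-quartile factors, other filters, 2-group fits, each library left out, a pseudocount of 1 and another transcript length.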

Additional observations from a re-analysis of the deposited data

How the results depend on the processing

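Of 210 log2 fold changes of the 10 genes under other tools, scalings, filters and samples in the fit, 202 kept direction and side of the threshold, 3 (all Clec4f, gRNA against HFHF control) lost the call and 5 gained it. The number of the 10 genes higher in gRNA than in chow was 5 with DESeq2 in place of 3, and between 2 and 5 when single libraries were left out, with 5 without HFHF control replicate 1. For gRNA against HFHF control 3 to 4 were higher in these fits and 4 lower in each, and on the diet 5 were higher and 3 lower in each. Values of genes that did not pass changed sign when single libraries were left out: Timd4 (gRNA against chow, -0.18 to 0.026), Marco (gRNA against chow, -0.17 to 0.57) and Flcn (diet, -0.16 to 0.11). For these the cause was not tested. For Flcn and the called genes named from the lists, 916 of 939 values under other settings kept direction and side of the threshold, and 23 lost the call. Without single libraries 2616 of 2700 kept both, 83 lost the call and 1 changed sign. Upper-quartile scaling moved the share of higher genes among all calls from 50.7% to 37.8% for gRNA against HFHF control and from 49.4% to 60.7% on the diet. Of the 21 ratio tests, 17 passed, 18 with a pseudocount of 1, and 14 to 18 without single libraries. Exact permutation tests of the 10 genes in 3 comparisons passed for 21 of 30 with either pseudocount. Like the ratio tests, they use the libraries of the edgeR fit and genes chosen with earlier results known, so they are not independent support. No paired analysis was possible because replicate numbers were given in accession order. Counts of 2 to 38 per library limit the precision of Cd163, Marco and Timd4 in HFHF control.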
